A study of Mus musculus with 14 samples.

Results

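miR-205-5p, miR-203-3p and miR-31-5p are microRNAs (miRNAs) known from basal and squamous epithelium such as skin. The 3 were chosen by name, as miRNAs with this known role that are listed in the counts of both preparations. Earlier results of these data were known, but the values of the 3 played no part in the rule. They are 3 of 999 names listed in all, of which 578 are listed for both preparations. The opposite arm of each hairpin (miR-205-3p, miR-203-5p and miR-31-3p) was used for comparison.

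Small RNA was sequenced from the caput, corpus and cauda of the epididymis, the duct in which sperm mature, to compare miRNA profiles along its length. All animals were male Swiss mice of 8 weeks whose vessels had been flushed with buffer. Whole tissue gave 3 caput, 2 corpus and 3 cauda libraries, each from tissue of 3 pooled mice. Epithelial cells were released with enzymes after sperm had been washed out, and were taken as those still in suspension after 4 h on plates, to which fibroblasts and muscle cells attach according to the methods. The study checked these cells for androgen receptor and for cytokeratin 8, an epithelial keratin, with antibodies. It reports them as highly enriched for epithelial cells. It found no sperm among them by a lectin that stains the acrosome or by a blot for the sperm protein IZUMO1. The cells gave 2 libraries per region, each from 9 pooled mice for the caput and corpus and 12 for the cauda.

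The methods of the study state 2 replicates per region, while 3 libraries were available for the caput and cauda of whole tissue. They also state that the libraries were analyzed in triplicate, and whether these 3 are separate pools of mice could not be settled. The study calls the replicates biological in one place and technical in another. P-values here therefore measure the spread between these libraries, which may be partly technical. Each epididymis was cut into its 3 regions, so libraries of different regions may share mice. Which of them do is not stated, and the tests treat all libraries as separate. Total counts ran from 1243398 to 2135501 per library in whole tissue and from 89039 to 362867 in epithelial cells. Each preparation has its own set of counts, and whether both were sequenced together is not stated. Preparation cannot be told apart from the making of these sets.

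A miRNA is cut from a hairpin precursor, and 1 strand of the duplex is loaded into an Argonaute protein, which it guides to messenger RNAs that pair with its seed (bases 2 to 8). The other strand is usually degraded, so the arms of a hairpin seldom have equal levels. In stratified epithelium miR-205 is prominent in the basal layer, where it sustains proliferation of progenitor cells. miR-203 rises in the suprabasal layers of skin, where it represses the basal transcription factor p63, and miR-31 is known from wound edges and hyperplastic epidermis. The epididymal duct has a pseudostratified epithelium in which small basal cells lie beneath tall principal cells. Basal keratins and p63, which define basal cells, are not miRNAs and are not in these counts, so the name basal and squamous describes what is known of the 3 miRNAs and could not be checked in these libraries.

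Mature sequences and hairpins were taken from RefSeq (mouse build GRCm38.p6), whose miRNA set matched 755 of the 900 names listed for whole tissue and 513 of the 677 listed for epithelial cells. All 3 members and their opposite arms matched. The mature sequences are shown because the arms are counted separately below, with the seed in capitals.
miR-205-5p: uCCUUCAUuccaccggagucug
miR-203-3p: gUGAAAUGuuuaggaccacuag
miR-31-5p: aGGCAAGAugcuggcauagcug
miR-205-3p: gAUUUCAGuggagugaagcuca
miR-203-5p: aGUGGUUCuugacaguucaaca
miR-31-3p: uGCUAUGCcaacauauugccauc

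The 3 members have different seeds, and none of the other mature mouse miRNAs in the RefSeq set shares a seed with any of them. Their counts were whole numbers in every library. The hairpins of miR-205 and miR-31, whose arm use differed between libraries, are shown with the mature arms in capitals.
Mir205: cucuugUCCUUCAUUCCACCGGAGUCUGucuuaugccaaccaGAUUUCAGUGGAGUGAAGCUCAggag
Mir31: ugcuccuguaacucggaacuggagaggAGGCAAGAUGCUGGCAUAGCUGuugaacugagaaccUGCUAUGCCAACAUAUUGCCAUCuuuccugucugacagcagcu

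Mir205 (minus strand, chr1:193507463-193507530) lies within an exon of 4631405K08Rik, a long intergenic non-coding RNA of the same strand. Its nearest protein-coding genes are Camk1g at 137165 bp and Plxna2 at 1110688 bp. Mir203 (plus strand, chr12:112130880-112130955) overlaps no annotated host gene and lies between Aspg at 3321 bp and Kif26a at 15253 bp. Mir31 (minus strand, chr4:88910557-88910662) lies within an exon of AL805899.1, also a long intergenic non-coding RNA of the same strand, with Ifne at 30356 bp and Mtap at 226460 bp as the nearest protein-coding genes. The 3 hairpins are thus on separate chromosomes, and no pair of them shares a transcript.

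Set on 1 scale for all libraries, the 3 members had 3 different orders of level. Levels are given in CPM (counts per 1000000 counts of a library, after its total was scaled by the trimmed mean of M values, TMM), here with scaling factors computed jointly over the 14 libraries. miR-205-5p was highest in the epithelial cells of the cauda (21864 ± 736 CPM, SD, n = 2) and corpus (20513 ± 1714, n = 2), whose ranges overlapped. Epithelial cells of the caput followed (10516 ± 780, n = 2), with no overlap on either side. Whole tissue lay below all of these. Its corpus (1996 ± 115, n = 2) and caput (1979 ± 300.4, n = 3) overlapped, and its cauda was lowest (1166 ± 133, n = 3).

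miR-203-3p was a rarer miRNA that was also highest in epithelial cells, but with less distance between the groups. Its joint CPM was 239 ± 1.32 in epithelial cells of the cauda and 221 ± 51.7 in those of the caput, which overlapped, and 129 ± 1.05 in those of the corpus (n = 2 each). The epithelial corpus overlapped whole tissue caput (102 ± 38.2, n = 3), which overlapped whole tissue cauda (59.4 ± 24.8, n = 3). Whole tissue corpus was lowest and stood apart (37.4 ± 1.98, n = 2).

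miR-31-5p had another order, led by whole tissue. Its cauda (291 ± 36.2, n = 3) and caput (278 ± 17.0, n = 3) were highest and overlapped. Epithelial cells of the caput followed (239.6 ± 25.1, n = 2), below whole tissue caput but overlapping whole tissue cauda. Whole tissue corpus came next (104 ± 2.87, n = 2). Epithelial cells of the cauda (66.4 ± 27.2, n = 2) and corpus (43.6 ± 8.58, n = 2) were lowest and overlapped.

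**Figure D1:**
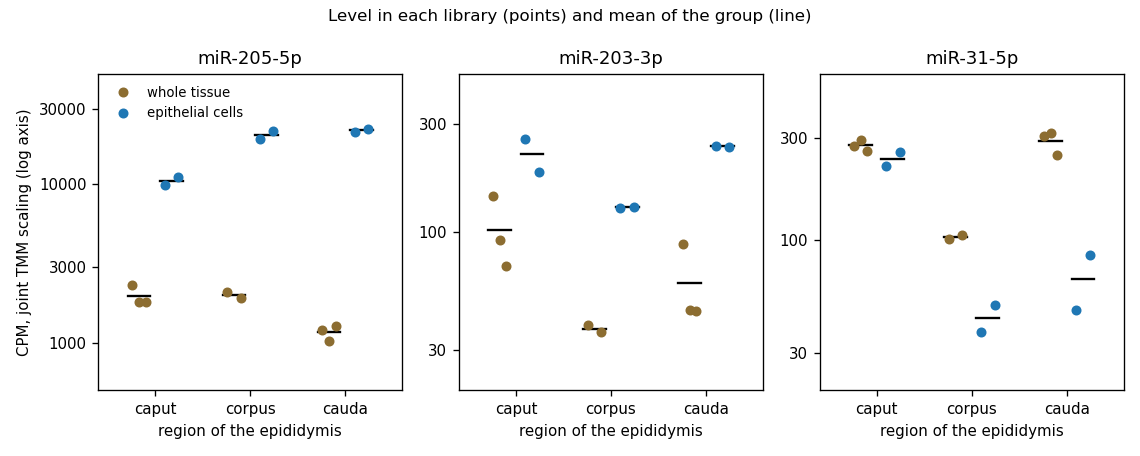
Level of each member in each library, as CPM with joint TMM scaling on a log axis, by region and preparation; points are libraries and black lines are group means. miR-205-5p lies between 9964 and 22384 CPM in the epithelial libraries and between 1021 and 2326 CPM in whole tissue, whereas miR-31-5p is lower in epithelial cells of the corpus and cauda than in any whole tissue library.

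Along whole tissue, the question was which miRNAs differ between the regions of the intact duct. miR-31-5p formed a trough in the corpus, with about equal levels on both sides of it. miR-203-3p was also lower in the corpus than in the caput. miR-205-5p was level from caput to corpus and lower in the cauda, by less than 2-fold. A miRNA was tested where its mean count was above 10 in either region compared, and called where the false discovery rate (FDR, the adjusted p of limma) was below 0.05 and the change at least 2-fold. Fewer cells of a type and less RNA per cell cannot be told apart in these bulk libraries.

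miR-31-5p had 427, 455 and 479 counts in the caput libraries, which is 275, 314 and 263 CPM on the TMM scale of whole tissue. The corpus libraries had 134 and 159 counts, or 100.1 and 104 CPM. The cauda libraries had 577, 474 and 400 counts, or 297, 292 and 236 CPM. Both corpus libraries lay below all others, and caput and cauda overlapped. Between caput and corpus it fell by 1.46 on the log2 scale (SE 0.155, adjusted p = 4.19e-05). From corpus to cauda it rose by 1.42 (SE 0.155, adjusted p = 4.70e-05). Between caput and cauda the log2 difference was -0.05 (SE 0.121, adjusted p = 0.732), and its sign changed with the scaling.

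miR-203-3p had 223, 142 and 129 counts in the caput, or 143, 98.0 and 70.8 CPM. In the corpus it had 51 and 54 counts, or 38.1 and 35.4 CPM. In the cauda it had 166, 68 and 72 counts, or 85.4, 41.9 and 42.4 CPM. Caput and cauda each held 1 library well above the others of its group, and both corpus libraries were below all the rest. miR-203-3p fell by 1.42 on the log2 scale from caput to corpus (SE 0.398, adjusted p = 0.0118). This call was lost without corpus library 1 (log2 change -1.48, adjusted p = 0.0529) and without corpus library 2 (-1.32, adjusted p = 0.0876), each of which leaves 1 corpus library whose spread is taken from the other groups. Between corpus and cauda the log2 difference was 0.56 (SE 0.413, adjusted p = 0.261). From caput to cauda it was -0.87 (SE 0.308, adjusted p = 0.0245), under 2-fold. This difference rests on single libraries, from -1.23 without cauda library 1 (adjusted p = 0.00195) to -0.54 without caput library 1 (adjusted p = 0.122).

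miR-205-5p had 3583, 2794 and 3291 counts in the caput, or 2305, 1927 and 1806 CPM. The corpus had 2728 and 2869 counts, or 2038 and 1882 CPM. The cauda had 2253, 1529 and 2057 counts, or 1159.5, 941 and 1213 CPM. Corpus libraries lay within the range of the caput, and every cauda library was below every other library. The log2 difference from caput to corpus was -0.03 (SE 0.135, adjusted p = 0.855), and its sign changed with the scaling. From corpus to cauda miR-205-5p fell by 0.83 on the log2 scale (SE 0.137, adjusted p = 0.000623) and from caput to cauda by 0.86 (SE 0.122, adjusted p = 9.60e-05), both under 2-fold and so not called. Over the alternatives the change from caput to cauda ran from -0.87 to -0.51. Smooth muscle miRNAs summed to 5.09% of counts in the caput and 26.3% in the cauda (means), and their part in this fall was not tested.

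Calls were common among all miRNAs of whole tissue, at 29.9% of 334 from caput to corpus (47 higher, 53 lower), 27.3% of 341 from corpus to cauda (49 higher, 44 lower) and 53.2% of 355 from caput to cauda (99 higher, 90 lower). Of the 3 members, 2 were called in the first comparison, 1 in the second and 0 in the third. With library totals in place of TMM, the median log2 change of all miRNAs tested moved by 0.33 (corpus against caput) and 0.35 (cauda against caput), and the calls split into 76 higher and 35 lower, and 115 higher and 65 lower. Members' changes are therefore read relative to the median.

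In the isolated epithelium, the question was which of these regional differences are found in the epithelial cells. miR-31-5p was again far lower in the corpus than in the caput, and it was as low in the cauda. miR-205-5p was higher in the corpus and cauda than in the caput, by slightly less than 2-fold. miR-203-3p gave no call between regions.

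miR-31-5p had 80 and 78 counts in the caput, or 249 and 251 CPM on the TMM scale of epithelial cells. The corpus libraries had 5 counts each, or 40.6 and 51.1 CPM. The cauda libraries had 12 and 18 counts, or 44.7 and 86.0 CPM. Both caput libraries stood above all others, while corpus and cauda overlapped and rest on few counts. miR-31-5p fell by 2.34 on the log2 scale from caput to corpus (SE 0.474, adjusted p = 0.0129). The fall to the corpus was no longer called without caput library 1 (-2.35, adjusted p = 0.0763), caput library 2 (-2.34, adjusted p = 0.0598) or corpus library 1 (-2.16, adjusted p = 0.0665). From caput to cauda miR-31-5p fell by 2.01 (SE 0.353, adjusted p = 0.00414). This call held without any single library. Between corpus and cauda the log2 difference was 0.33 (SE 0.529, adjusted p = 0.705). With 5 counts, the exact 95% bounds for corpus library 1 were 12.8 and 91.8 CPM by library total, and those for corpus library 2 were 18.2 and 131 CPM.

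miR-205-5p had 3594 and 3355 counts in the caput, or 11184 and 10809 CPM. The corpus had 2568 and 2185 counts, or 20837 and 22314 CPM. The cauda had 5434 and 4708 counts, or 20233 and 22486 CPM. Corpus and cauda overlapped and stood well above the caput. miR-205-5p rose from caput to corpus by 0.97 on the log2 scale (SE 0.149, 1.96-fold, adjusted p = 0.00424) and from caput to cauda by 0.96 (SE 0.149, 1.94-fold, adjusted p = 0.00215). Neither reached the 2-fold limit, which both passed with library totals (1.14 and 1.15). Between corpus and cauda the log2 difference was -0.02 (SE 0.149, adjusted p = 0.928), and its sign changed with the scaling.

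miR-203-3p had 93 and 56 counts in the caput, or 289 and 180.4 CPM. The corpus had 17 and 13 counts, or 138 and 133 CPM, and the cauda had 61 and 50 counts, or 227 and 239 CPM. Corpus libraries were the lowest, and cauda libraries lay between the libraries of the caput. The log2 differences were -0.72 from caput to corpus (SE 0.369, adjusted p = 0.205), 0.74 from corpus to cauda (adjusted p = 0.213) and 0.02 from caput to cauda (adjusted p = 0.960).

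Among all miRNAs of epithelial cells, 12.2% of 205 were called from caput to corpus (13 higher, 12 lower), 10.9% of 192 from corpus to cauda (13 higher, 8 lower) and 25.9% of 216 from caput to cauda (30 higher, 26 lower). The members gave 1, 0 and 1 calls, all of miR-31-5p. The split from caput to corpus was 18 and 10 with DESeq2 size factors and 18 and 9 with library totals, and that from caput to cauda was 39 and 19 with library totals. With TMM computed over all listed names, chosen after seeing the data, the splits were 11 and 16, and 25 and 34. The median log2 change of all miRNAs moved by 0.11 with size factors, 0.17 with library totals and -0.14 with TMM over all names from caput to corpus, and by 0.18 and -0.10 with the latter pair from caput to cauda.

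**Figure D2:**
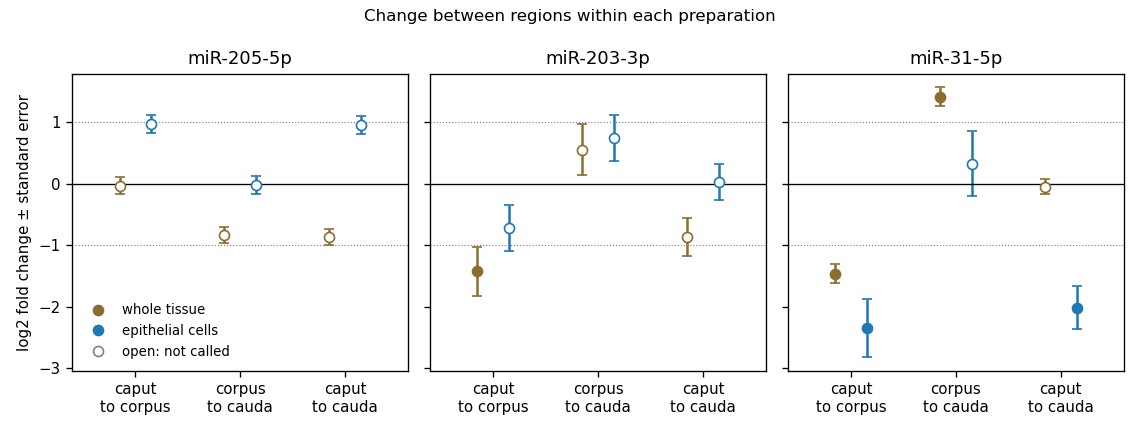
Log2 fold change between regions for each member, in whole tissue and in epithelial cells, with standard errors as bars; filled points were called and open points were not, and dotted lines mark 2-fold. miR-205-5p lies at 0.96 in epithelial cells and -0.86 in whole tissue from caput to cauda, and miR-31-5p at -2.01 and -0.05.

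Whether a regional change differed between the preparations was tested by an interaction term, for the 194 miRNAs with enough counts on both sides. miR-205-5p and miR-31-5p differed in opposite directions from caput to cauda. miR-205-5p was higher in the corpus and cauda than in the caput of the isolated epithelium, and was lower in the cauda than in the caput of whole tissue. miR-31-5p was low in the epithelial cells of the cauda but not in its whole tissue. A shift common to all regions of a preparation cancels in this test. A shift that differs between regions does not cancel. For the epithelial cells, sperm were flushed from the cauda by perfusion but let out of the caput and corpus through cuts. The part of this handling in the differences was not tested.

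For miR-205-5p the epithelial change exceeded that of whole tissue by 1.81 on the log2 scale from caput to cauda (SE 0.182, adjusted p = 5.97e-06). Its steps were 0.94 from caput to corpus (SE 0.193, adjusted p = 0.0211) and 0.87 from corpus to cauda (SE 0.194, adjusted p = 0.0122), each under 2-fold and not called. Over the alternatives the adjusted p of these steps reached 0.0962 and 0.0998. For miR-31-5p the difference was -1.94 from caput to cauda (SE 0.361, adjusted p = 0.00153). Its steps were -0.94 (adjusted p = 0.268) and -1.01 (adjusted p = 0.227). For miR-203-3p no difference between the preparations was called, with 0.63, 0.24 and 0.87 for the same 3 changes (adjusted p = 0.702, 0.872 and 0.215).

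Calls of this kind were made for 1.03% of the 194 miRNAs from caput to corpus (2 miRNAs), 7.22% from corpus to cauda (13 higher, 1 lower) and 18.6% from caput to cauda (26 higher, 10 lower). The members gave 0, 0 and 2. The median difference over all 194 was -0.01, 0.26 and 0.32, against which the members' values are to be read. Of the columnar and general epithelial list described below, 5 of 11 were also called higher from caput to cauda and 0 lower (median 0.83), and 3 and 4 with size factors and library totals. The splits rest on the scaling. They became 7 and 2 from corpus to cauda with either size factors or library totals, and from caput to cauda 13 and 12 with size factors and 16 and 12 with library totals. For caput to corpus they became 4 and 2 with size factors and 0 calls with library totals. The median moved by -0.26 with size factors from corpus to cauda, and by -0.19 and -0.16 from caput to cauda. The calls of miR-205-5p and miR-31-5p from caput to cauda were made under every scaling and test tried in which they could be fitted and without any single library.

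Set against whole tissue of the same region, epithelial cells had far more miR-205-5p everywhere. Among miRNAs listed under the same name for both preparations, it had the largest log2 excess for the corpus and for the cauda and stood at rank 4 of 284 for the caput. miRNAs with differing names are not in this ranking, such as miR-145a-5p in whole tissue (389 CPM in the corpus, mean) and miR-145-5p in epithelial cells (7729 CPM, each on the scale of its preparation). miR-203-3p was also higher in epithelial cells in all 3 regions. miR-31-5p was lower in the corpus and cauda of epithelial cells. The counts of each preparation come as a set of their own, so these differences hold the preparation together with how its set was made.

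miR-205-5p made up 0.154% to 0.206% of the counts in whole tissue caput and 0.990% and 1.03% in epithelial cells of the caput. In the corpus its share was 0.219% and 0.206% in whole tissue and 2.02% and 2.45% in epithelial cells. In the cauda it was 0.105% to 0.132% in whole tissue and 1.92% and 2.63% in epithelial cells. In every region each epithelial library was several times above each whole tissue library. The log2 excess was 2.42 in the caput (SE 0.129, 5.35-fold, adjusted p = 2.93e-09), 3.36 in the corpus (SE 0.144, 10.3-fold, adjusted p = 1.35e-10) and 4.23 in the cauda (SE 0.129, 18.8-fold, adjusted p = 1.01e-12). By rank of abundance among identified miRNAs, miR-205-5p stood between 42 and 62 in whole tissue libraries and between 11 and 17 in epithelial ones.

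miR-203-3p was higher in epithelial cells by 1.19 on the log2 scale in the caput (SE 0.333, adjusted p = 0.00714), by 1.82 in the corpus (SE 0.540, adjusted p = 0.0179) and by 2.06 in the cauda (SE 0.369, adjusted p = 0.000264). The groups did not overlap in any region, though epithelial corpus libraries held only 17 and 13 counts. Without whole tissue caput library 3 or epithelial caput library 1 the caput difference was 0.94 in both cases (adjusted p = 0.0244 and 0.123) and no longer called. The corpus call was lost without whole tissue corpus library 2 (1.76, adjusted p = 0.0535), epithelial corpus library 1 (1.69, adjusted p = 0.0973) or epithelial corpus library 2 (adjusted p = 0.0759).

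miR-31-5p differed in the other direction. The log2 difference was -0.21 in the caput (adjusted p = 0.385), -1.15 in the corpus (SE 0.400, adjusted p = 0.0337) and -2.16 in the cauda (SE 0.301, adjusted p = 3.04e-05). In the cauda, where whole tissue held 249 to 316 joint CPM and epithelial cells 47.1 and 85.6, it stood at rank 275 of 296. The corpus call was lost with DESeq2's Wald test, with size factors and with library totals (adjusted p = 0.0583, 0.0665 and 0.0567). It was also lost without any 1 of the 4 corpus libraries, at -1.18 and -1.12 without library 1 or 2 of whole tissue (adjusted p = 0.0593 and 0.0695) and -1.07 and -1.34 without library 1 or 2 of epithelial cells (adjusted p = 0.198 and 0.114).

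Such calls were made for 35.9% of 284 miRNAs in the caput (35 higher in epithelial cells, 67 lower), 27.3% of 275 in the corpus (22 higher, 53 lower) and 36.5% of 296 in the cauda (49 higher, 59 lower). The members gave 2, 3 and 3. With size factors the split in the corpus was 28 and 40. The median log2 difference moved by 0.12 (corpus) and -0.13 (cauda) with size factors, and by 0.13 (caput) with library totals.

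The arms of the miR-205 hairpin showed a second difference between the preparations. In whole tissue its minor arm, miR-205-3p, had 201, 201 and 162 (caput), 127 and 102 (corpus) and 118, 70 and 79 (cauda) counts. In epithelial cells it had 6 and 2, 2 and 3, and 7 and 2 counts, although miR-205-5p was several times more abundant there. As a share of the counts of both arms, miR-205-3p ran from 3.43% to 6.71% in the 8 whole tissue libraries and from 0.0425% to 0.167% in the 6 epithelial ones. The exact 95% binomial interval was 2.81% to 4.15% for the lowest whole tissue library and 0.0612% to 0.362% for the highest epithelial one. Such intervals cover counting error only.

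With at most 7 counts in an epithelial library, miR-205-3p is given here by its share alone. For comparison, 100 hairpins were taken by the count of their major arm alone, a description chosen after seeing the data. The log2 ratio of the minor to the major arm was lower in every epithelial library than in every whole tissue library for 15 of them (15.0%) and higher for 13. The shift for miR-205, -5.50, was the lowest of the 100, whose median was 0.13. The part of library making and read processing in this shift was not tested.

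The arms of miR-31 differed between regions of whole tissue. miR-31-3p had 40, 24 and 34 (caput), 1 and 2 (corpus) and 7, 2 and 2 (cauda) counts. Its share of both arms was 8.57%, 5.01% and 6.63% in caput libraries, 0.741% and 1.24% in corpus libraries, and 1.199%, 0.420% and 0.498% in cauda libraries. With 1 count in corpus library 1, the exact 95% interval of that share was 0.0188% to 4.06%. The lowest caput library, with an interval of 3.24% to 7.36%, was above the estimate of every library of the other regions. In the cauda, miR-31-5p was thus as high as in the caput while its opposite arm was not.

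From caput to cauda of whole tissue miR-31-3p fell by 3.26 on the log2 scale (adjusted p = 9.46e-05), beside -0.05 for miR-31-5p. From caput to corpus the fitted change was -3.90 (adjusted p = 0.00069), which rests on 1 and 2 counts in the corpus. Among 126 hairpins taken by their major arm in the same way, the minor to major ratio was higher in every caput library than in every other whole tissue library for 23 (18.3%) and lower for 8. The caput excess of miR-31, 2.92, was at rank 2 of the 126, whose median was 0.12. In epithelial cells miR-31-3p had between 0 and 4 counts per library, too few for a comparison, and the 0 counts among 5 of both arms in each corpus library set no useful limit.

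**Figure D3:**
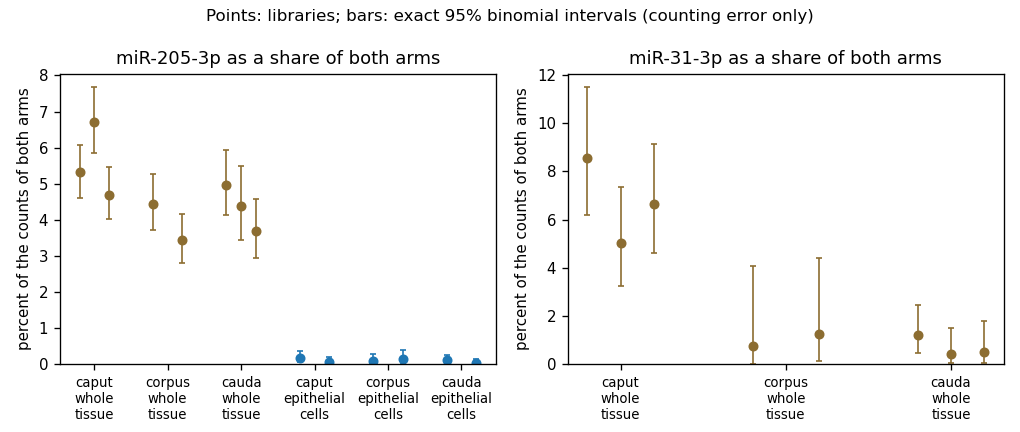
Share of the opposite arm in the counts of both arms, in percent, for miR-205-3p in both preparations and for miR-31-3p in whole tissue; points are libraries and bars are exact 95% binomial intervals. miR-205-3p lies at 3.43% or more in whole tissue and at 0.167% or less in epithelial cells, and miR-31-3p at 5.01% or more in the caput and 1.24% or less elsewhere.

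miR-203-5p, the minor arm of miR-203, made up 7.85% to 18.2% of both arms in whole tissue and 1.96% to 8.20% in epithelial cells, ranges that overlap. The epithelial shares rest on 1 to 6 counts of miR-203-5p a library. From caput to corpus of whole tissue miR-203-5p fell by 1.11 on the log2 scale (adjusted p = 0.0333), close to the value of miR-203-3p. It had only 7 and 11 counts in that corpus. miR-205-3p fell from caput to cauda of whole tissue by 1.21 (adjusted p = 0.000573), where miR-205-5p fell by 0.86.

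Other miRNAs of epithelium were set beside the members. The columnar and general epithelial list holds 11 miRNAs, among them the miR-200 family, which sustains the epithelial state by repressing ZEB transcription factors, and miR-375-3p and miR-182-5p. From caput to cauda of whole tissue 9 of the 11 fell and 0 rose (median log2 change -1.25), beside 53.2% called and a median of -0.05 over all miRNAs tested. The most abundant by its mean over whole tissue, miR-182-5p, fell by 1.93 (adjusted p = 9.12e-08) and miR-200a-3p by 1.25 (adjusted p = 6.46e-07). All 11 were below 0 under each of the 3 other scalings, with 8 called with size factors, 5 with library totals and 9 with TMM over all names. In epithelial cells 2 of the 11 fell from caput to cauda and 0 rose (median -0.50), no larger a share than the 25.9% called over all miRNAs (median -0.00), while with library totals 1 rose and 2 fell. miR-182-5p fell there by 1.56 (adjusted p = 0.00087), and miR-200a-3p had a log2 difference of 0.13 (adjusted p = 0.604). Between caput and corpus 2 fell in whole tissue (29.9% of all called) and 1 rose in epithelial cells (12.2% of all), where TMM over all names gave 1 fall in its place. Between corpus and cauda 5 fell in whole tissue (27.3% of all called) and 3 in epithelial cells (10.9% of all).

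Against whole tissue, the epithelial cells did not show a common excess of this list. In the caput 1 of 11 was lower and 0 were higher (median log2 difference -0.53), beside 35.9% called and a median of -0.28 over all miRNAs. In the corpus 2 were lower (median -0.29), beside 27.3% called and -0.24 over all. In the cauda 3 were higher and 0 lower (median 0.32), beside 36.5% called and -0.21 over all. The most abundant of the list in epithelial cells was miR-182-5p in the caput, with a log2 difference of -0.58 (adjusted p = 0.000715), miR-200a-3p in the corpus, with -0.31 (adjusted p = 0.0845), and miR-200b-3p in the cauda, with 2.19 (adjusted p = 6.01e-09). With library totals 0 were called for the caput and 0 for the corpus, with size factors 1 and 0, while 3 were higher in the cauda under both.

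The keratinocyte list holds 5 other miRNAs known from skin epithelium, of which miR-27b-3p and miR-23b-3p were the most abundant in epithelial cells. Against whole tissue 1 of 5 was higher in the caput and in the corpus, miR-23b-3p in both (log2 difference 1.27, adjusted p = 3.81e-05, and 1.24, adjusted p = 0.000623), and 0 in the cauda. These shares are below the 35.9%, 27.3% and 36.5% called among all miRNAs. The median log2 differences of the list were 0.23, 0.55 and 0.68, beside -0.28, -0.24 and -0.21 over all miRNAs. In each region 4 of the 5 lay above 0. miR-27b-3p differed by 0.46, 0.87 and 0.97, below 2-fold. From caput to corpus 1 of 5 rose in each preparation, beside 29.9% and 12.2% called among all miRNAs. In whole tissue 1 also fell from corpus to cauda (27.3% of all called) and 1 rose from caput to cauda (53.2% of all). Each of these was miR-184-3p, an miRNA of corneal epithelium, which rose by 4.23 from caput to corpus in whole tissue (adjusted p = 1.05e-06) and by 3.85 in epithelial cells (adjusted p = 0.0159).

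Set as a ratio to the summed miR-200 family, which cancels the library total, miR-205-5p had its lowest values in the caput of both preparations. This ratio is a description and was not tested. For every 100 counts of the family there were 11.5, 8.86 and 9.00 counts of miR-205-5p (whole tissue caput), 12.6 and 12.1 (corpus) and 13.3, 13.0 and 15.6 (cauda). For epithelial cells the values were 64.5 and 71.0 (caput), 116.6 and 122.6 (corpus) and 150.9 and 120.6 (cauda). In whole tissue the caput libraries were thus below the corpus libraries, and these below the cauda libraries, although the CPM of miR-205-5p was lowest in the cauda. In epithelial cells the corpus and cauda overlapped. The family itself took 1.71% to 1.83% of counts in whole tissue caput and 0.807% to 0.955% in the cauda.

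The same ratio separated miR-31-5p between preparations only outside the caput. It was 1.37, 1.44 and 1.31 per 100 family counts in whole tissue caput and 1.44 and 1.65 in epithelial caput. In the cauda it was 3.40, 4.03 and 3.03 in whole tissue and 0.333 and 0.461 in epithelial cells. For miR-203-3p the ratio was 0.353 to 0.714 in the caput of whole tissue and 1.18 and 1.67 in that of epithelial cells. For the corpus it was 0.235 and 0.228 beside 0.772 and 0.730, and for the cauda 0.546 to 0.978 beside 1.69 and 1.28. Epithelial libraries were thus above whole tissue within each region.

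Markers of other cell types also varied with region and preparation. Of the smooth muscle list all 4 miRNAs were listed, and their sum took 4.54% to 5.90% (caput), 8.65% and 8.36% (corpus) and 24.9% to 27.0% (cauda) of counts in whole tissue. In epithelial cells it took 12.8% and 18.7% (caput), 20.6% and 23.1% (corpus) and 31.9% and 18.5% (cauda). Its most abundant member, miR-143-3p, was the most abundant miRNA of every epithelial library, and miR-143-5p was at 0 in corpus library 1 of epithelial cells. Against whole tissue miR-143-3p was higher in epithelial cells of the caput and corpus (log2 difference 1.43 and 1.29), where 35.9% and 27.3% of all miRNAs were called. It was not called in the cauda (-0.14, 36.5% of all). In whole tissue all 4 smooth muscle miRNAs rose from caput to cauda, where 53.2% of all miRNAs were called. In epithelial cells 0 of 3 tested were called in this comparison, beside 25.9% of all. The part of smooth muscle in the regional change of miR-205-5p and miR-31-5p was not tested.

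Both endothelial miRNAs were counted in every library, led by the 5p arm of miR-126, with 1.24% to 1.93% of counts in whole tissue. In epithelial cells they took 3.17% and 2.44% (caput), 1.39% and 1.44% (corpus) and 5.37% and 5.45% (cauda). Both fell there from caput to corpus and rose from corpus to cauda, beside 12.2% and 10.9% called among all miRNAs. Neither was called from caput to cauda (25.9% of all). All 4 fibroblast and stroma miRNAs were counted too, with 0.158% to 0.193% (caput), 0.365% and 0.386% (corpus) and 0.365% to 0.435% (cauda) of counts in whole tissue. In epithelial cells they took 0.259% and 0.305% (caput), 0.392% and 0.482% (corpus) and 0.6499% and 0.537% (cauda). In each preparation 2 of 4 rose from caput to cauda, beside 53.2% and 25.9% called among all miRNAs. Both times these were miR-199a-3p and miR-199b-3p, whose values were equal (1.01 in whole tissue and 1.08 in epithelial cells). They thus stand for 1 measurement. The other 2 were not called, at 0.63 and 0.57 in whole tissue and at -0.32 and -1.02 in epithelial cells. The most abundant was miR-199a-5p in whole tissue, and in epithelial cells miR-199a-3p and miR-199b-3p, whose counts were equal. Against whole tissue 3 of the 4 were higher and 1 lower in epithelial cells of the caput (35.9% of all called). For the corpus 0 were higher and 1 lower (27.3% of all), and for the cauda 2 and 1 (36.5% of all), with the equal pair counted as 2. The lower miRNA was miR-199a-5p each time (-1.06, -1.87 and -2.01), the opposite arm of miR-199a-3p (1.21, 0.91 and 1.28). In the comparison of hairpin arms between preparations, miR-199a shifted by -2.77, at rank 5 of 100.

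Red blood cell and germ cell miRNAs included calls from caput to cauda in both preparations, all of them rises. The 3 red blood cell miRNAs, led by miR-486a-5p (miR-486-5p in epithelial cells), took 0.00712% to 0.00851% (caput), 0.0292% and 0.0252% (corpus) and 0.0909% to 0.142% (cauda) of counts in whole tissue. In epithelial cells they took 0.0402% and 0.0355% (caput), 0.0201% and 0.0444% (corpus) and 0.278% and 0.183% (cauda), with miR-144-3p at 0 in corpus library 1. All 3 rose from caput to cauda in each preparation, beside 53.2% and 25.9% called among all miRNAs. The 13 germ cell miRNAs, led by miR-34c-5p, took 0.402% to 0.471% (caput), 0.602% and 0.710% (corpus) and 1.26% to 1.67% (cauda) in whole tissue. In epithelial cells they took 0.401% and 0.375% (caput), 0.422% and 0.2999% (corpus) and 0.271% and 0.834% (cauda), with miR-34c-3p at 0 in both corpus libraries and miR-743a-3p in corpus library 1. In whole tissue 11 of 13 of these rose from caput to cauda (53.2% of all called), and 5 of 11 tested in epithelial cells (25.9% of all), where the libraries of the cauda lay on both sides of the caput in their sum. Against whole tissue 3, 3 and 10 of the 13 were lower in epithelial cells of the caput, corpus and cauda, and 0 were higher. The shares called among all miRNAs were 35.9%, 27.3% and 36.5%.

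The 4 leukocyte miRNAs, led by the 5p arm of miR-142, took 0.0858% to 0.0989% in the caput and 0.212% to 0.220% in the cauda of whole tissue, where 2 of 4 rose, close to the 53.2% of all. In epithelial cells they took 0.0750% and 0.0443% (caput) and 0.147% and 0.157% (cauda), with miR-223-3p at 0 in cauda library 2, and 2 of 2 tested rose (25.9% of all). Striated muscle miRNAs (4 listed for whole tissue, 3 for epithelial cells), led by miR-133a-3p, took 0.00272% to 0.00293% in the caput and 0.0153% to 0.112% in the cauda of whole tissue, where 4 of 4 rose (53.2% of all), and 0.0325% to 0.0629% in epithelial cells. Of these miR-206-3p was at 0 in all 3 caput libraries and corpus library 1 of whole tissue, and miR-208b-3p in caput libraries 1 and 3 of whole tissue and in all epithelial libraries but cauda library 2. Against whole tissue miR-133a-3p was called higher in epithelial cells of the caput and corpus but not of the cauda, and miR-1a-3p was not called. Of the leukocyte list miR-150-5p was higher in the caput (1.56) and cauda (1.95), and miR-223-3p was lower in the cauda (-3.08). Among all miRNAs 35.9%, 27.3% and 36.5% were called. The part of these cells in the members' values was not tested.

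The miRNAs with the most similar patterns were sought by Pearson's r of log2 CPM over the libraries of 1 preparation, as a description. Libraries share a region, so any miRNA with the same regional pattern has a high r. Over the 8 whole tissue libraries, miR-205-5p was most like miR-30b-3p (0.984), miR-8114 (0.977) and miR-96-5p (0.968) among 360 miRNAs. miR-203-3p was most like miR-221-3p (0.905), miR-31-3p (0.890) and miR-669l-5p (0.885). miR-31-5p was most like miR-339-5p (0.938), miR-128-3p (0.893) and miR-27b-3p (0.880). Spearman's rho, a correlation of ranks, was lower for these 3 (0.595, 0.691 and 0.571).

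Over the 6 epithelial libraries and 216 miRNAs the neighbours were others. miR-205-5p was most like miR-222-3p (0.995), miR-196a-5p (0.982) and miR-181d-5p (0.958). miR-203-3p was most like miR-148b-5p (0.953), miR-15b-5p (0.932) and miR-126-3p (0.923). miR-31-5p was most like miR-350-3p (0.979), miR-148a-5p (0.956) and miR-429-3p (0.955). Between the members, r in whole tissue (n = 8) was 0.660 for miR-203-3p with miR-31-5p, 0.350 for miR-205-5p with miR-203-3p and -0.384 for miR-205-5p with miR-31-5p. In epithelial cells (n = 6) the same pairs had 0.524, -0.405 and -0.924. No member was among the nearest neighbours of another.

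These results rest on 14 libraries of pooled mice, with 2 or 3 per group, and on counts in which the epithelial corpus is the shallowest. The values of miR-31-5p and miR-203-3p in epithelial cells of the corpus come from 5 to 17 counts a library, and their calls there depend on single libraries. Differences between the preparations cannot be told apart from cell handling or from how each set of counts was made, and regional changes of tissue cannot be told apart from changes in its mix of cells. Basal cells were not separated from other epithelial cells, and neither primary transcripts nor targets of the 3 miRNAs were measured.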

How the data were processed

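Small RNA libraries (50 bp single reads) were read with CASAVA 1.8.2 and aligned with Bowtie 1.1.1, per the submitters' processing notes. The values are expected counts per mature miRNA, as the authors deposited them, with 2.95% to 4.58% of values in a library fractional, and 0.001 had been added to each epithelial value, which was removed. How reads that match several miRNAs were shared is not given in the sources used here.

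Values were rounded to whole numbers, and those ending in 0.5 to the even neighbour. Rounding 0.5 up was used first and gave 29, 18 and 57 calls between regions of epithelial cells. The rule was then changed because the even rule gave the 25, 21 and 56 calls of earlier results of these data, and rounding up is kept as an alternative. No count of a member was fractional.

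The test was limma-voom (R 4.3.3, limma 3.58.1) on counts scaled by the TMM method of edgeR 4.0.16. Each preparation had its own fit with a mean per region and without a replicate block. A joint fit of the 14 libraries over the 578 shared names gave the interaction and the comparison of preparations. P-values were adjusted by the Benjamini-Hochberg method over all miRNAs tested. Alternatives were edgeR's quasi-likelihood test, the Wald test of DESeq2 1.42.0, its size factors, library totals, no filter, a filter of at least 10 counts in each library, fits of only the regions compared, a replicate block and fits without 1 library. TMM over all listed names, rounding 0.5 up, a crossed block and the comparison of hairpin arms were chosen after seeing the data.

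Arm ratios used counts plus 0.5, over hairpins whose major arm had a mean above 10 counts in both preparations, or in every region of whole tissue. A filter on both arms in whole tissue was used first and replaced because it favours minor arms that are high there. Log2 CPM for the search of similar patterns used a prior count of 2. miRNAs named are the members, their opposite arms, the 3 nearest by pattern in each preparation, and listed miRNAs with the most abundant as examples. miR-23b-3p and miR-184-3p were named after their values were seen. The members and lists were chosen with earlier results of these data known. Genes around the hairpins are from GENCODE. The fits were tested on simulated data.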

Additional observations from a re-analysis of the deposited data

Results flagged for a closer look

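Regional changes that differed between epithelial cells and whole tissue by the limma interaction were singled out. For miR-205-5p the epithelial change minus that of whole tissue was 0.94 on the log2 scale from caput to corpus, 0.87 from corpus to cauda and 1.81 from caput to cauda (adjusted p = 0.0211, 0.0122 and 5.97e-06). The first 2 were under 2-fold and not called, and their adjusted p reached 0.0962 and 0.0998 under alternatives. Both epithelial cauda libraries lay above both epithelial caput libraries, and all 3 whole tissue cauda libraries lay below all 3 of the caput. For miR-31-5p the difference was -1.94 from caput to cauda (adjusted p = 0.00153). Smooth muscle miRNAs took 5.09% of counts in the caput and 26.3% in the cauda of whole tissue (means), and 15.7% and 25.2% in epithelial cells, and their part in these differences was not tested.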

How the results depend on the processing

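Of the 36 results of members (3 members in 12 comparisons), 15 were called. The alternatives gave 315 values, of which 285 kept direction and call, and called results kept their call in 121 of 125 values and never changed sign. Leaving out 1 library gave 378 values, of which 346 kept both, and called results kept their call in 162 of 176. There were 10 results called under every alternative that could be fitted and without every library.

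Sign changes (log2) were of uncalled differences near 0. For miR-205-5p from caput to corpus of whole tissue (-0.03) the values were 0.00905 with the Wald test, 0.00792 with no filter, 0.00528 with at least 10 counts, 0.00735 with TMM over all names, 0.0164 with size factors, 0.303 with library totals and 0.0271 with only those regions. For miR-31-5p from caput to cauda of whole tissue (-0.05) they were 0.0520 with the Wald test, 0.0427 with size factors and 0.302 with library totals (adjusted p = 0.0423; 0.0423 to 0.937 over its alternatives). For miR-203-3p from caput to cauda of epithelial cells (0.02) they were -0.0144 with edgeR, -0.0912 with no filter, -0.0927 with TMM over all names and -0.0778 with at least 10 counts. For miR-205-5p from corpus to cauda of epithelial cells (-0.02) they were 0.0107 with library totals, 0.0114 with only those regions, 0.0168 with no filter and 0.0248 with TMM over all names. For the interaction of miR-203-3p from corpus to cauda (0.24) they were -0.0430 with the Wald test and -0.0143 with at least 10 counts.

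miR-205-5p from caput to corpus of epithelial cells (0.97) passed 2-fold with the Wald test (1.08), size factors (1.07), library totals (1.14) and only those regions (1.05), and from caput to cauda (0.96) with library totals (1.15). Its interaction from caput to corpus (0.94) passed it with the Wald test (1.01). miR-31-5p in the corpus (epithelial against whole tissue, -1.15) lost its call with the Wald test (-1.16), size factors (-1.03) and library totals (-1.13), with adjusted p between 0.0121 and 0.0665 over its alternatives.

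Without 1 library the log2 ranges of results that changed were -0.0884 to 0.119 for miR-205-5p, -1.63 to -1.11 for miR-203-3p from caput to corpus, and -1.23 to -0.54 for miR-203-3p and -0.11 to 0.10 for miR-31-5p from caput to cauda of whole tissue. In epithelial cells they were 0.92 to 1.03 for miR-205-5p and -2.50 to -2.16 for miR-31-5p from caput to corpus, -0.0930 to 0.0643 for miR-205-5p and -0.0883 to 0.85 for miR-31-5p from corpus to cauda, and 0.88 to 1.095 for miR-205-5p and -0.31 to 0.37 for miR-203-3p from caput to cauda. The interaction of miR-205-5p from caput to corpus ran from 0.82 to 1.06. Between preparations miR-203-3p ran from 0.94 to 1.47 in the caput and 1.69 to 1.87 in the corpus, and miR-31-5p from -1.34 to -1.07 in the corpus. A group left with 1 library is assumed to vary like the others.

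Replicate numbers gave no consistent pairing of the libraries, since deviations of the same number had r of 0.20, -0.14 and -0.18 in epithelial cells and -0.06 to 0.22 in whole tissue. With the epithelial cauda numbers exchanged, the r of corpus with cauda was 0.14 and that of caput with cauda 0.18. Whether libraries of different regions share mice could not be settled. With the number as a replicate block, miR-203-3p in the caput (epithelial against whole tissue) was 0.75 (adjusted p = 0.0415) in place of 1.19, under 2-fold, and no other call of a member changed. The block gave 27, 22 and 52 calls between regions of epithelial cells. A crossed block with the cauda numbers exchanged, added after seeing the data, gave 40, 32 and 64. Values of the members were not taken from the crossed block.

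Counts of calls moved by over 1.5 times in 23 of 111 alternatives and 20 of 126 left-out libraries. With no filter, epithelial cells gave 53 (caput to corpus) and 37 (corpus to cauda), and the preparations differed in 172, 181 and 188 (caput, corpus, cauda). With at least 10 counts in every library, whole tissue gave 64 (caput to corpus) and 115 (caput to cauda), epithelial cells 28 (caput to cauda), the interactions 1, 7 and 15, and the preparations 34, 38 and 39; fewer miRNAs are tested there, and miR-31-5p could be tested in whole tissue only. Interactions from caput to corpus (2) numbered 4 with edgeR, 6 with the Wald test or size factors, 0 with library totals and 1 with 0.5 rounded up, and from corpus to cauda (14) 9 with size factors or library totals. Without 1 library the 3 epithelial counts ran from 10 to 30, 4 to 26 and 29 to 64, the interactions from 0 to 4, 3 to 20 and 21 to 39, and the corpus count between preparations from 47 to 88. The epithelial corpus libraries, with 127111 and 89039 counts, set the depth limit, since miR-31-5p had 5 counts in each.

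The first filter on hairpins, both arms above a mean of 10 counts in whole tissue, left 58, of which 13 were lower and 6 higher in every epithelial library, with a median shift of -0.48 in place of 0.13 and miR-205 lowest under both. Under it miR-31 was at rank 1 of 58 by caput excess, in place of rank 2 of 126.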
